A study of Mus musculus with 6 samples.

Results

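The transcripts of 49 mouse genes of ribosome assembly and the nucleolus were examined in cells with Zmat3 targeted by CRISPR/Cas9. The 49 genes were listed by function after the differences between these libraries were known, so they were selected on the contrast described here. Their levels are therefore given as a description, without a test. They were 49 of 27179 rows in the deposited table, and all 49 were among the 14777 genes with enough reads to be tested. A protein-coding transcript was measured for each gene, not ribosomal RNA (rRNA) and not ribosomes.

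The study used mouse embryonic fibroblasts of genotype Cas9+;E1A;HrasG12V, which carry Cas9, the E1A oncogene of adenovirus and a mutant, active form of Hras. All 6 libraries shared this genotype. Guide RNAs were delivered by lentivirus, cells carrying them were selected, and total RNA was taken when 10 days of culture had passed. The Zmat3 knockout group had 3 libraries, each with its own guide: sgZmat3 52.6, sgZmat3 51.5 and sgZmat3 54.8 in libraries 1, 2 and 3. The control group had 3 libraries with the negative control guides EV, SPA and ACOCA in libraries 1, 2 and 3. Zmat3 encodes a zinc finger RNA-binding protein that p53 induces, and the libraries were made to find the genes whose transcripts differ in its absence. The labels do not say whether the libraries came from separate starting cultures, so the spread between libraries includes guide differences and may otherwise be technical.

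Ribosomes are assembled in the nucleolus, where RNA polymerase I transcribes a long rRNA precursor. Small nucleolar ribonucleoproteins (snoRNPs) modify the precursor, nucleases cut it, and assembly factors build the small and the large subunit around the pieces before export to the cytoplasm. Growing and dividing cells make many ribosomes, and the transcription factor Myc is known to drive many genes of this process through E-box elements. The 49 genes are ordered below by step, with 6 in rRNA transcription, 19 in small subunit assembly, 16 in large subunit assembly, 7 in snoRNPs and 1, Pop1, in RNase MRP. Genes that act in more than 1 step, such as Ncl, Npm1 and Heatr1, were placed in a single step.

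Values are read counts divided by a size factor per library, called normalised counts, and log2 fold changes are Zmat3 knockout minus control on the log2(normalised count + 1) scale. Knockout libraries 1, 2 and 3 held 69515101, 55383299 and 53253055 reads in genes, and control libraries held 81027772, 90256118 and 60730974. Zmat3 itself was at 11421, 4912 and 4960 normalised counts in the knockout libraries, which is 67.9%, 29.2% and 29.5% of the control mean, against 17169, 15869 and 17434 in control. Of 10 fibroblast markers, 7 had enough reads to be tested, from Fn1 at 59569 to 87778 normalised counts in knockout and 46319 to 69605 in control to Dcn at 73.9 to 107 in knockout and 5.90 to 110 in control. The other 3 were near or at 0, with Col1a2 at 2.31 to 7.28 in knockout and 6.35 to 14.2 in control, Thy1 at 4.62 to 5.42 in knockout and 0 to 2.36 in control, and Lum at 0 in every library. Of 8 epithelial markers, Epcam was the most abundant, at 19711 to 25182 in knockout. It was at 24986, 18992 and 3574 in control libraries 1, 2 and 3. Krt18 was at 91.3 to 452 in knockout and 107 to 8675 in control, Krt8 was at most 30.7 in any library, and Krt5 was at 0 in every library. Control library 3 stood apart from every other library over all tested genes, and not only for the assembly genes. Fold changes of named genes and medians of gene groups are therefore given with and without it.

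Promoters of 3 of the genes described below are shown because they hold the E-box CACGTG and belong to genes that were lower in the knockout libraries. They are RefSeq windows of 300 bases in GRCm38.p6, from 250 bases before the annotated start to 50 bases from the start on, printed 5′ to 3′ on the gene's strand with the E-box in capitals.
Mybbp1a, chr11:72441077-72441376, plus strand: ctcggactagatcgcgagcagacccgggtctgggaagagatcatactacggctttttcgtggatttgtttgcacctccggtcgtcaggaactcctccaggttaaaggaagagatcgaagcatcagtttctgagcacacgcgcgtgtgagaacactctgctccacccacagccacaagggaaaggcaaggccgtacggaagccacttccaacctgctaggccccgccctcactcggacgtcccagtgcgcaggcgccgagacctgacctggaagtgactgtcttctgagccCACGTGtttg
Utp20, chr10:88826765-88827064, minus strand: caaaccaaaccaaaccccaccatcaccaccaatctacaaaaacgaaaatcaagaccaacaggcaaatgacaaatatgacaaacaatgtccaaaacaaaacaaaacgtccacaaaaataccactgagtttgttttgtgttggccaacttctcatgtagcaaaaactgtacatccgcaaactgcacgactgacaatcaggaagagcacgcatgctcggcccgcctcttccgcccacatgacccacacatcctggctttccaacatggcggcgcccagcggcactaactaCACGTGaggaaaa
Nop2, chr6:125131633-125131932, plus strand: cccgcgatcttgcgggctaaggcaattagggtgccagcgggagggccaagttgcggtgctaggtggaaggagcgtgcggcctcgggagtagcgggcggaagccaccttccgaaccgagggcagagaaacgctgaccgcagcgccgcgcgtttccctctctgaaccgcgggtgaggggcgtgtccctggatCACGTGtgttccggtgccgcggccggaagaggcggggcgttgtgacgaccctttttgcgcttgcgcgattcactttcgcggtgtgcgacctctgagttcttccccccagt
The E-box begins at base 291 of the window in Mybbp1a, at base 288 in Utp20 and at base 191 in Nop2, so in the first 2 it lies after the annotated start. The letters CACGTG read the same on both strands. They were present in 9 of the 42 assembly genes that have a window in the table (21.4%), namely Imp4, Ltv1, Mybbp1a, Nop2, Pes1, Pno1, Tsr1, Utp20 and Wdr43. Among all tested genes with a window they were present in 1302 of 11217 (11.6%), among other ribosome assembly genes in 18 of 92 (19.6%) and among ribosomal protein genes in 6 of 62 (9.68%). The median GC content of the windows was 59.3% for the assembly genes and 61.0% for all tested genes. A match is a description of the sequence and not a measured binding site.

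Every assembly gene had a lower mean on the log2 scale in the Zmat3 knockout libraries than in the control libraries. Fold changes were negative in 49 of 49, ranged on the log2 scale from -1.52 in Rrp12 to -0.31 in Noc2l and had a median of -0.73 with quartiles of -0.99 and -0.64. Over all 14777 tested genes, 48.4% were negative and the median was 0.01. On the linear scale the knockout mean was 29.3% to 79.7% of the control mean, with a median of 52.4%. The log2 fold change was below -1 in 11 of the 49. In bulk RNA, fewer cells of a kind and less RNA per cell cannot be told apart.

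Much of the size of this difference came with control library 3. That library was the highest of the 6 for all 49 genes, where 36.8% of all tested genes had their highest value in it. Its normalised count was 1.34 times the mean of the other 2 control libraries in Noc2l, 4.01 times in Nhp2 and 2.33 times in the median gene, and it was over 2 times that mean in 35 genes. Without control library 3 the log2 fold change was still negative in 49 of 49, against 49.3% of all tested genes. It then ranged from -0.94 in Rrp12 to -0.02 in Utp14a, with a median of -0.35, and the knockout mean was 51.6% to 98.7% of the mean of control libraries 1 and 2.

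By library, the median assembly gene stood at -0.86, -0.70 and -0.75 on the log2 scale, relative to the control mean, in knockout libraries 1, 2 and 3. In control it stood at -0.56, -0.25 and 0.82 in libraries 1, 2 and 3. The knockout libraries thus lay close together, and most of the spread among the control libraries came from library 3. The highest knockout library was 1.19 times the lowest in the median gene, and the highest control library was 2.66 times the lowest. Over all tested genes these medians were 1.22 in knockout and 1.5 in control. The standard deviation was smaller in knockout than in control for all 49 genes. Control library 2 was above control library 1 in 47 of 49 genes, and was 1.23 times it in the median gene. Among the knockout libraries, library 1, which kept the most Zmat3 transcript, was the lowest for 35 assembly genes and library 3 for the other 14, and library 2 was the highest for 39.

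**Figure D1:**
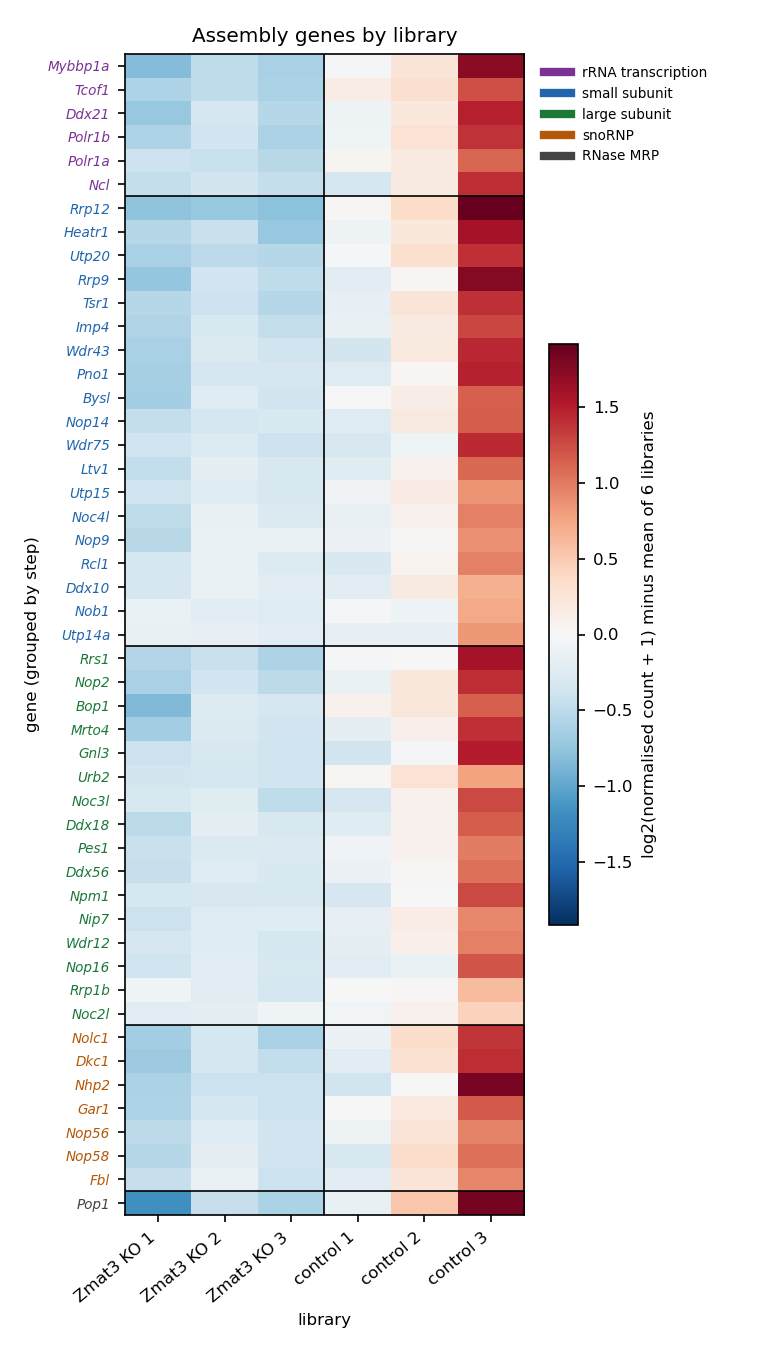
Levels of the 49 assembly genes by library, with genes in rows grouped by step (label colour) and the 3 Zmat3 knockout libraries left of the 3 control libraries. Colour is log2(normalised count + 1) minus the gene's mean over the 6 libraries, with red higher and blue lower; control library 3 is the highest in all 49 rows.

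The 3 knockout libraries all lay below the 3 control libraries in 35 of the 49 genes, where 14.4% of all tested genes did. In the other 14 the groups overlapped, because control library 1 lay below the highest knockout library. These 14 were Ddx10, Ddx18, Fbl, Gnl3, Ltv1, Noc3l, Noc4l, Nop16, Nop58, Npm1, Rcl1, Utp14a, Wdr43 and Wdr75. Leaving out control library 3 cannot change these counts, since it was the highest library for every assembly gene. The gap was often narrow, and the lowest control library was more than 25% above the highest knockout library in 9 genes.

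Across all genes, limma called 0 of 14777 at an FDR of 0.05 with all 6 libraries, and so 0 of the 49 (0% of all tested genes called lower). At an unadjusted limma p under 0.05, 1948 genes passed, and 22 of the 49 assembly genes passed and were lower, where 7.16% of all tested genes did so. The edgeR quasi-likelihood test also called 0, with 1943 genes at an unadjusted p under 0.05. DESeq2 on the recovered reads called 130 genes, among them 4 assembly genes, all lower, which were Rrp12, Tcof1, Pop1 and Mybbp1a (0.48% of all genes called lower). Without control library 3, DESeq2 called 19 assembly genes lower (2.74% of all genes), and without control library 1 it called 43 (7.71% of all genes). On simulated data 30.6% of DESeq2 calls at this FDR were false, so its calls here may exceed the stated rate. No simulated library was made to stand apart as control library 3 does, so the share in these data may differ. In that simulation limma correctly called 96 of 200 changed genes, so it can miss changes. Because the 49 genes were selected on this contrast, the counts above describe them and support nothing further.

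**Figure D2:**
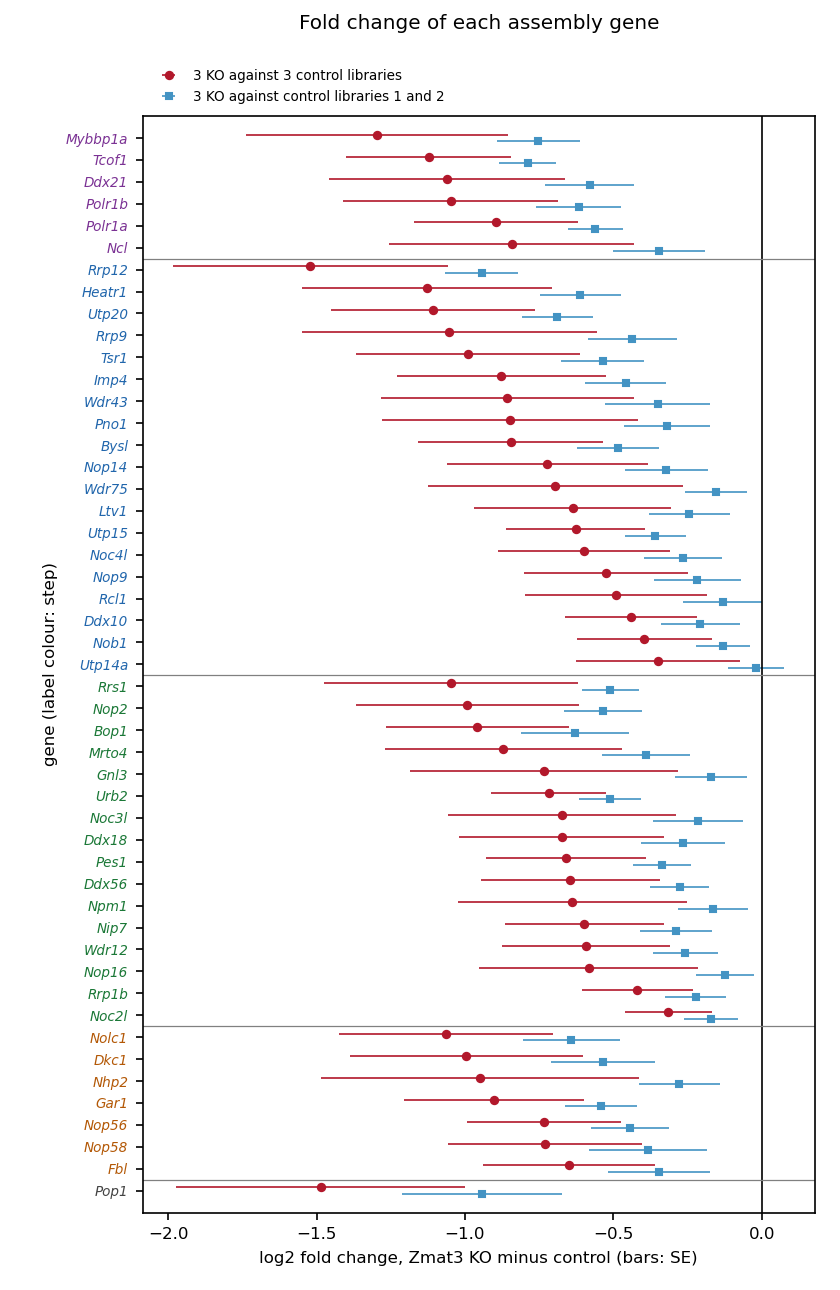
Log2 fold change of each of the 49 assembly genes, Zmat3 knockout minus control, with its standard error from limma (bars). Circles use all 6 libraries and squares leave out control library 3; all points lie left of 0, and the squares lie closer to 0 than the circles in every gene.

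The 6 genes of rRNA transcription had a median log2 fold change of -1.05, or -0.60 without control library 3. All 6 had their knockout libraries below their control libraries, where 14.4% of all tested genes did. They are Polr1a and Polr1b, the largest subunits of RNA polymerase I, Tcof1, Mybbp1a, Ncl and Ddx21. Tcof1 (Entrez gene 21453) encodes treacle, a nucleolar scaffold of RNA polymerase I transcription. It was at 5088, 5444 and 4996 normalised counts in knockout libraries 1, 2 and 3, against 8413, 9482 and 17894 in control libraries 1, 2 and 3. Its lowest control library was 54.5% above its highest knockout library, so the groups were clearly apart. Its log2 fold change was -1.12 (SE 0.28), and -0.79 (SE 0.10) without control library 3.

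Mybbp1a (Entrez gene 18432, GRCm38 chr11:72441355-72451768, plus strand) encodes a nucleolar Myb-binding protein known to act in rRNA synthesis and processing, and its promoter is printed above. It was at 12671, 16152 and 14641 normalised counts in knockout, against 21921, 26923 and 75146 in control. The groups did not overlap, and control library 3 was 3.08 times the mean of the other 2 controls. Its log2 fold change was -1.30 (SE 0.44), and -0.75 (SE 0.14) without that library. Exons of Mybbp1a overlap those of Spns2 on the other strand, and without stated strand handling their reads cannot be told apart.

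Ddx21 (Entrez gene 56200, chr10:62580251-62602281, minus strand) encodes an RNA helicase that links RNA polymerase I transcription with rRNA processing. It was at 8804, 11712 and 9954 normalised counts in knockout, against 13556, 16774 and 40914 in control. All knockout libraries were below all control libraries, with a log2 fold change of -1.06 (SE 0.40), or -0.58 without control library 3. Ncl (Entrez gene 17975, chr1:86344719-86359400, minus strand) encodes nucleolin, a major nucleolar RNA-binding protein and histone chaperone. It was at 56786, 61173 and 56941 in knockout, against 62259, 87996 and 208186 in control. Here the lowest control library was only 1.77% above the highest knockout library, and the log2 fold change of -0.84 (SE 0.41) became -0.35 without control library 3. Per kilobase of coding sequence Ncl had the highest control level of the 49, at 27487 normalised counts per kilobase in knockout and 56332 in control.

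The 19 genes of small subunit assembly had a median log2 fold change of -0.72, or -0.32 without control library 3. In 12 of them the knockout libraries lay below the control libraries, where 14.4% of all tested genes did so. Rrp12 (Entrez gene 107094, chr19:41862851-41896173, minus strand), a HEAT-repeat protein needed in yeast for export of both subunits, had the largest difference of all 49. It was at 1631, 1684 and 1616 normalised counts in knockout, against 2820, 3546 and 10492 in control. The lowest control library was 67.4% above the highest knockout library, the widest gap of the 49. This gave a log2 fold change of -1.52 (SE 0.46), and -0.94 (SE 0.12) without control library 3.

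Heatr1 (Entrez gene 217995, chr13:12395027-12440289, plus strand), the homologue of yeast Utp10, belongs to the complex that binds the first part of the rRNA precursor. It was at 2365, 2589 and 2103 normalised counts in knockout, against 3224, 3974 and 10479 in control, with no overlap. Its log2 fold change was -1.13 (SE 0.42), and -0.61 without control library 3. Per coding kilobase it had the lowest knockout level of the 49, at 366 normalised counts in knockout and 917 in control. Utp20 (Entrez gene 70683, chr10:88746607-88826804, minus strand), a large scaffold of the small subunit precursor whose promoter is printed above, was at 3757, 4072 and 3959 in knockout, against 5633, 7111 and 15131 in control. Its groups lay 38.3% apart, and the log2 fold change was -1.11 (SE 0.35), or -0.69 without control library 3.

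Utp14a (Entrez gene 72554, chrX:48256862-48282453, plus strand), whose yeast homologue activates a helicase that releases the U3 snoRNA, had the smallest difference of the step. It was at 1872, 1854 and 1787 normalised counts in knockout, against 1863, 1858 and 3702 in control. Control libraries 1 and 2 lay within the range of the knockout libraries, and only control library 3 was higher. The log2 fold change of -0.35 (SE 0.28) became -0.02 (SE 0.09) without that library. The other 15 genes of the step had log2 fold changes from -1.05 to -0.40. They include Imp4 and Rrp9 of the U3 snoRNP, at -0.88 and -1.05, or -0.46 and -0.44 without control library 3. Among factors of late small subunit maturation, Tsr1 was at -0.99, Bysl at -0.85, Pno1 at -0.85, Ltv1 at -0.64 and the endonuclease Nob1 at -0.40. Without control library 3, Tsr1 was at -0.54, Bysl at -0.48, Pno1 at -0.32, Ltv1 at -0.24 and Nob1 at -0.13.

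**Figure D3:**
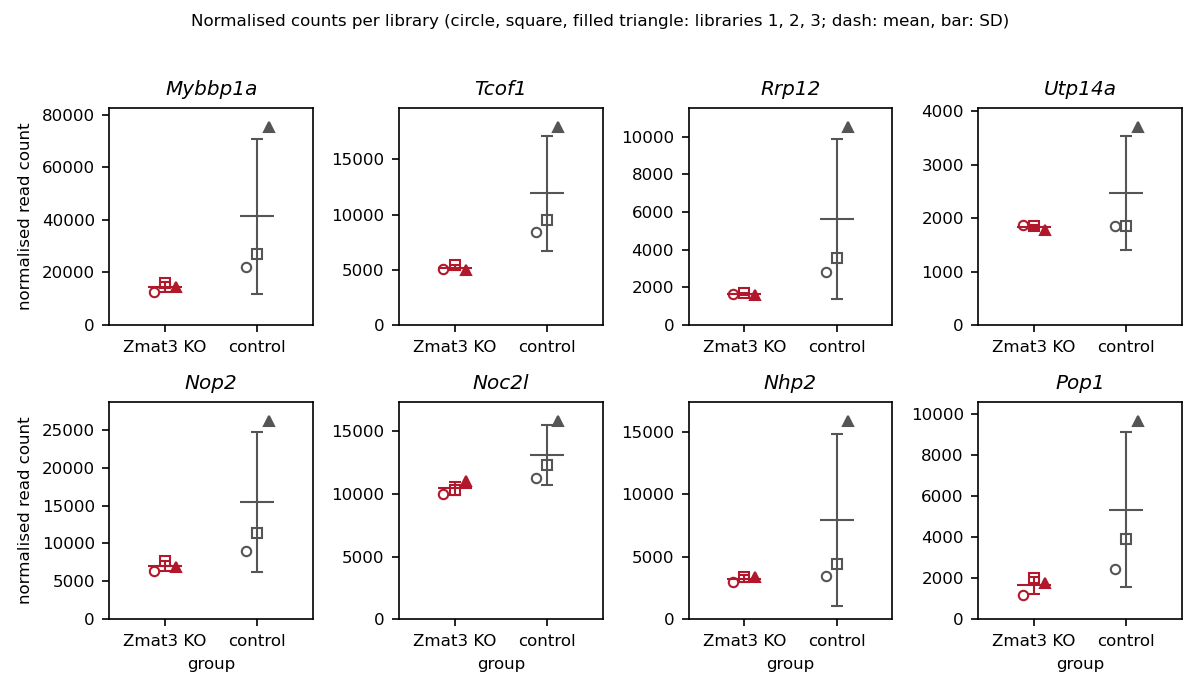
Normalised counts of 8 assembly genes in each library, with the 3 Zmat3 knockout libraries (red) left of the 3 control libraries (grey); each y axis starts at 0 and has its own range. The dash is the mean and the bar the SD (n = 3); control library 3 (grey triangle) is the highest point in each panel, and in Utp14a the other 2 controls lie among the knockout libraries.

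The 16 genes of large subunit assembly had a median log2 fold change of -0.67, or -0.27 without control library 3. In 11 of them the knockout libraries lay below the control libraries, where 14.4% of all tested genes did so. Rrs1 (Entrez gene 59014, chr1:9545408-9547455, plus strand), known in yeast for bringing a small rRNA and its proteins into the large subunit, was at 2650, 2904 and 2586 normalised counts in knockout, against 3790, 3927 and 11807 in control. Control libraries 1 and 2 were close to each other and above every knockout library. Rrs1 had a log2 fold change of -1.05 (SE 0.43), and -0.51 (SE 0.10) without control library 3.

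Nop2 (Entrez gene 110109, chr6:125131909-125144753, plus strand), an rRNA cytosine methyltransferase whose promoter is printed above, was at 6397, 7635 and 6946 normalised counts in knockout, against 8960, 11391 and 26122 in control. Its groups did not overlap, with a log2 fold change of -0.99 (SE 0.38), or -0.53 without control library 3. Bop1 (Entrez gene 12181, chr15:76452989-76477277, minus strand) forms the PeBoW complex with Pes1 and Wdr12, which is needed to process the large subunit's rRNA. It was at 3435, 5139 and 4944 in knockout, against 6533, 7189 and 13619 in control. Knockout library 1 was well below the other 2 knockout libraries, and all 3 were below every control library. The log2 fold change was -0.96 (SE 0.31) for Bop1, -0.66 for Pes1 and -0.59 for Wdr12. Without control library 3 it was -0.63 for Bop1, -0.34 for Pes1 and -0.26 for Wdr12. Exons of Bop1 overlap those of Mroh1 on the other strand, with the same limit as for Mybbp1a. The limit also holds for Heatr1, Utp14a, Noc2l, Urb2, Dkc1 and Nhp2, whose exons overlap those of other genes in the same way.

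Noc2l (Entrez gene 57741, chr4:156236010-156247616, plus strand), the homologue of a yeast protein that moves large subunit precursors out of the nucleolus, had the smallest difference of the 49. It was at 10028, 10308 and 11002 normalised counts in knockout, against 11266, 12280 and 15794 in control. The groups were 2.40% apart, and the log2 fold change was -0.31 (SE 0.15), or -0.17 without control library 3. Urb2 (Entrez gene 382038, chr8:124021508-124048505, plus strand), a large subunit factor in yeast, had the lowest control level per coding kilobase, at 536 normalised counts in knockout and 902 in control. It was at 2459, 2482 and 2416 in knockout, against 3226, 3789 and 5361 in control, with no overlap and a log2 fold change of -0.72 (SE 0.19), or -0.51 without control library 3.

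Npm1 encodes nucleophosmin, an abundant nucleolar chaperone, and its level is uncertain because the mouse genome holds near-identical copies of it. It was at 24409, 25015 and 25063 normalised counts in knockout, against 24719, 31274 and 74530 in control. Per coding kilobase it stood at 28344 in knockout, the highest knockout level of the 49, and at 49666 in control, next to Ncl. Its log2 fold change of -0.64 (SE 0.39) became -0.16 without control library 3, and its groups overlapped, with control library 1 below knockout libraries 2 and 3. Gnl3, which encodes the nucleolar GTPase nucleostemin, had a like pattern, at -0.73 and at -0.17 without control library 3.

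The 7 snoRNP genes had a median log2 fold change of -0.90, or -0.44 without control library 3. In 5 of them the knockout libraries lay below the control libraries, where 14.4% of all tested genes did so. Nolc1 (Entrez gene 70769, chr19:46075863-46085530, plus strand) encodes a chaperone of snoRNPs in the nucleolus and Cajal bodies. It was at 8521, 10591 and 8652 normalised counts in knockout, against 12258, 16850 and 34476 in control, with no overlap and a log2 fold change of -1.06 (SE 0.36), or -0.64 without control library 3. Dkc1 (Entrez gene 245474, chrX:75095854-75109777, plus strand) encodes dyskerin, the pseudouridine synthase of box H/ACA snoRNPs. It was at 3898, 5031 and 4575 in knockout, against 5459, 7710 and 16878 in control. Its groups were 8.51% apart, and the log2 fold change was -0.99 (SE 0.39), or -0.54 without control library 3.

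Nhp2 (Entrez gene 52530, chr11:51619735-51623714, plus strand), a partner of dyskerin, was at 2950, 3400 and 3392 normalised counts in knockout, against 3458, 4459 and 15862 in control. It had the largest ratio of control library 3 to the other controls among the 49, and its log2 fold change was -0.95 (SE 0.54), and -0.28 (SE 0.14) without that library. Gar1, the other H/ACA protein listed, was at -0.90 and at -0.54 without it. Fbl (Entrez gene 14113, chr7:28169710-28179269, plus strand) encodes fibrillarin, the ribose methyltransferase of box C/D snoRNPs. It was at 1099, 1361 and 1121 in knockout, against 1295, 1759 and 2848 in control. Control library 1 lay below knockout library 2, so the groups overlapped, and the log2 fold change was -0.65 (SE 0.29), or -0.35 without control library 3. Nop56 and Nop58, its core partners, were each at -0.73, or at -0.44 and -0.38 without that library.

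Pop1 (Entrez gene 67724, chr15:34495304-34530648, plus strand) encodes the largest protein shared by RNase MRP, which cuts the rRNA precursor, and RNase P, which trims tRNA precursors. It was at 1196, 1993 and 1781 normalised counts in knockout, against 2466, 3926 and 9645 in control. All knockout libraries were below all control libraries, with knockout library 1 the lowest. Pop1 had a log2 fold change of -1.49 (SE 0.49), and -0.94 (SE 0.27) without control library 3.

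Together the 49 genes took 0.437%, 0.490% and 0.452% of the reads in knockout libraries 1, 2 and 3, against 0.532%, 0.659% and 1.33% in control libraries 1, 2 and 3. Ncl and Npm1 alone took 0.127% to 0.135% in knockout and 0.135% to 0.395% in control. Some of the 49 have annotated snoRNAs between their start and end on the same strand, and are called hosts here. In the GENCODE annotation 7 of them (14.3%) host 21 snoRNAs, and 211 of 13203 annotated tested genes (1.6%) host any. The share among other assembly genes and ribosomal protein genes was not counted. The hosts are Ncl, Wdr43, Tsr1, Gnl3, Nop56, Nop58 and Dkc1, with 5 snoRNAs in Nop56 and 4 in Nop58. The 49 genes lie on 18 chromosomes.

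A wider list of ribosome assembly genes outside the 49 gave smaller differences in the same direction. Of 113 such genes, all tested, 106 were lower in knockout by log2 fold change (median -0.42), where 48.4% of all tested genes were. The 3 knockout libraries lay below the 3 control libraries in 45 and above them in 2. Of all tested genes, 14.4% lay below and 13.2% above. Without control library 3, 97 of 113 were negative with a median of -0.19. Limma called 0 of the 113, with 23 lower and 2 higher at an unadjusted p under 0.05 (7.16% and 6.02% of all tested genes). DESeq2 called 0 with all libraries, and 11 lower and 1 higher without control library 3 (2.74% and 2.55% of all genes). The lowest were Nle1 at -1.12, Ccdc86 at -1.06 and Ftsj3 at -1.02, all large subunit factors, or -0.56, -0.51 and -0.58 without control library 3. The highest were Nsa2 at 0.35, Nop53 at 0.29 and Taf1d at 0.17, or 0.32, 0.24 and 0.46 without control library 3. Nop53 was at 12570, 11730 and 12117 normalised counts in knockout, against 10340, 10254 and 9243 in control, so its groups lay apart in the opposite direction to the 49. This list was also chosen with earlier results of these data known.

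The ribosomal proteins, which the assembly factors fit onto rRNA, had the opposite sign on balance. Their measured levels were very uneven, with control means from 132 normalised counts for Rpl39 to 111619 for Rpl4. Whether near-identical gene copies affected these levels, as for Npm1, was not tested, so the signs and the read share are uncertain. The list also includes Rps27l and Rpl32l. Of 79 tested ribosomal protein genes, 29 were lower and 50 higher in knockout by log2 fold change (median 0.10, or 0.19 without control library 3). By library, their median relative to the control mean was 0.15, 0.03 and 0.10 in knockout libraries 1, 2 and 3. In control libraries 1, 2 and 3 it was -0.12, -0.13 and 0.25, so control library 3 stood above every knockout library. That library was the highest of the 6 for 41 of the 79 (51.9%), where it was for 36.8% of all tested genes. Knockout libraries lay above control libraries in 20 and below them in 6, where 13.2% of all tested genes lay above and 14.4% below. Limma called 0 of them, with 14 higher and 2 lower at an unadjusted p under 0.05, where 6.02% of all tested genes were higher and 7.16% lower. DESeq2 called 0 with all libraries, and without control library 3 it called 8 higher and 0 lower, where 2.55% of all genes were called higher. They took 2.11% to 2.37% of the reads in knockout and 1.82% to 2.00% in control. The difference between the assembly genes and the ribosomal proteins was not tested, since the assembly genes were selected on the same contrast.

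**Figure D4:**
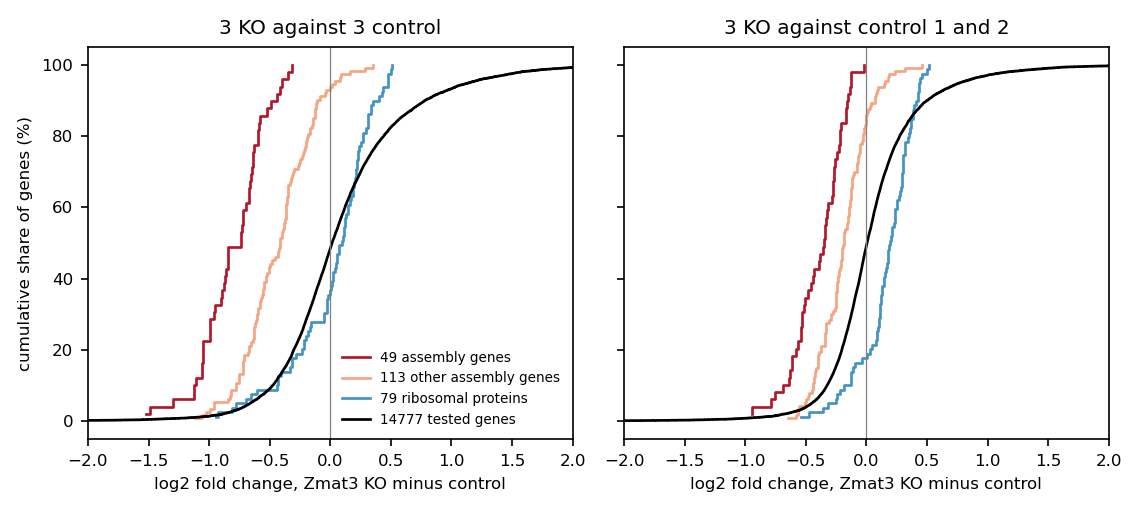
Cumulative share of genes (percent, y axis) by log2 fold change, Zmat3 knockout minus control (x axis), with all 6 libraries (left) and without control library 3 (right). The 49 assembly genes (red) have a median of -0.73 on the left and -0.35 on the right, the 113 other assembly genes (orange) -0.42 and -0.19, the 79 ribosomal proteins (blue) 0.10 and 0.19, and all 14777 tested genes (black) 0.01 in both.

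**Figure D5:**
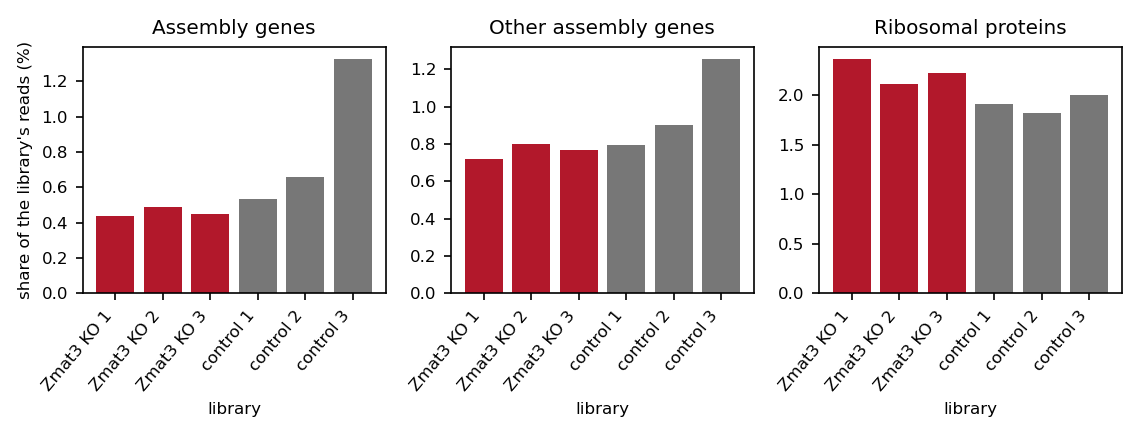
Percent of each library's reads taken by the 49 assembly genes, the 113 other assembly genes and the ribosomal proteins, with the 3 Zmat3 knockout libraries (red) left of the 3 control libraries (grey) and each y axis starting at 0. Control library 3 has the tallest bar for both sets of assembly genes, and the knockout bars are the taller ones for ribosomal proteins.

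Markers of dividing cells moved with the assembly genes. All 10 of 10 were lower in knockout, 9 without overlap between the groups, where 48.4% and 14.4% of all tested genes were. Their summed level was 96451 to 106087 normalised counts in knockout and 130573 to 209737 in control, highest in control library 3. Their median log2 fold change was -0.67, or -0.45 without control library 3. Fibroblast markers had the opposite sign, with all 7 tested of 10 higher in knockout. In 2 of them the groups did not overlap, where 13.2% of all tested genes lay above in this way. The fibroblast markers had a summed level of 81928 to 113743 in knockout and 54356 to 90407 in control, lowest in control library 3. Their median log2 fold change was 0.94, but 0.24 without control library 3. Of the 8 epithelial markers 5 were tested, 2 lower and 3 higher in knockout. The epithelial markers had a summed level of 20452 to 25428 in knockout and 12459 to 29639 in control, lowest in control library 3. Of 10 leukocyte markers 7 were at 0 in at least 1 library. Cd68, the tested one, was at 7160 to 9236 in knockout, and at 5352, 6049 and 769 in control libraries 1, 2 and 3. The part of these markers in the levels of the assembly genes was not tested.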

How the data were processed

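Per the labels' protocols, an RNeasy kit was used to extract RNA from the 6 fibroblast samples, which were sequenced by Illumina methods. The submitters' processing notes name STAR, DESeq2 and the mm10 build. The annotation, read counter, strand setting and versions were not given in the sources used here. The signal that the authors deposited is a read count scaled by 1 size factor per library. Dividing by the worth of a single read, 0.732 to 1.21, gave whole reads for 100% of values (within 0.001). Rows without a gene name, 1.90% to 2.23% of reads, carry gene numbers and stayed in the tests. Of all rows, 92.99% matched RefSeq by gene number.

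Genes with at least 10 in 3 libraries (filterByExpr) were kept. Limma 3.58.1 (trend, robust; R 4.3.3) was run on log2(value + 1), two-sided, with Benjamini-Hochberg adjustment over 14777 genes and an FDR of 0.05; a pseudocount of 1 understates changes of low genes. The recovered reads were also fitted with edgeR 4.0.16 (quasi-likelihood, TMM) and DESeq2 1.42.0 as alternatives, and each fit was checked on simulated data, where the share of false calls was above the FDR for DESeq2 and below it for limma and edgeR. Every pair of libraries differed by more than sampling noise over the tested genes. The chi-square per degree of freedom was 316.6 to 580.2 for pairs with control library 3. It was 18.8 to 239.9 for all other pairs, those of knockout with control libraries 1 and 2 included. Levels per kilobase use the coding length of a principal GENCODE M21 transcript, and 22 of the 49 genes overlap exons on the other strand.

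The 49 members and all gene lists were chosen with earlier results of these data known. Values of every library are given, in each step, for the 3 genes with the largest and the 1 with the smallest fold change, and for those with the highest and lowest level per kilobase in either group. Nop53 and genes given by fold change alone were chosen after their values were seen. Of 114 listed other assembly genes, Riok2 was not analysed here. Rrp12, Tcof1, Bop1, Pop1, Npm1, Fbl and Rrs1 have no promoter in the table used.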

Additional observations from a re-analysis of the deposited data

How the results depend on the processing

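All 49 assembly genes kept a negative log2 fold change under every alternative run: DESeq2, edgeR, TMM scaling, scaling by total reads, other filters and pseudocounts, the replicate block and each library left out. The other filters and the replicate block cannot change a limma fold change, since they leave a gene's mean difference as it is. Those runs therefore say nothing about its sign. The median of the 49 stayed between -1.06 (without control library 1) and -0.35 (without control library 3). Groups did not overlap in 34 to 48 of them, against 35 with all libraries. With all libraries 14.4% of all tested genes lay below, and without control library 3, 2603 of 14777 did. The 48 came without control library 1. Groups are more easily apart with fewer libraries, and the share of all tested genes in the other settings is not given here. No named gene changed sign: 266 of their values kept their side of the limma threshold and 4, all from DESeq2, passed it.

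Counts of calls moved more. With all genes, limma called 0, DESeq2 130, and limma without 1 library 0 to 5, the 5 being without control library 3. DESeq2 called 4 assembly genes lower (0.48% of all genes), 10 at an FDR of 0.1 (0.959%), 15 with the replicate block (1.72%) and 0 to 43 with 1 library left out. These were 43 without control 1 (7.71%), 2 without control 2 (0.4%), 19 without control 3 (2.74%) and 0 without knockout 1, 2 or 3 (0.282%, 0.101% and 0.0768%). EdgeR called 0, with 31 of the 49 at an unadjusted p under 0.05, where 1943 of 14777 tested genes were, in either direction. Over all genes DESeq2 called 218 with a mean of at least 50, 560 with the block, 2142, 87 and 701 without control 1, 2 and 3, and 61, 25 and 27 without knockout 1, 2 and 3. The causes were not tested.

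Each library's deviations from its group's mean, gene by gene, were correlated between knockout and control libraries. Same-numbered libraries gave 0.26, 0.20 and -0.02. Knockout libraries 1 and 2 each correlated best with the control library of the same number. Knockout library 3 correlated best with control library 2, at 0.22, so the numbers were not taken to pair the libraries. Depth was not limiting, since the lowest value of any assembly gene in any library was 1099 normalised counts, for Fbl. With 3 libraries a group, the spread among controls set the precision. Fold changes without a control library rest on 2 controls.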
